A study of Homo sapiens with 8 samples.

Results

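The 38 genes described here encode the machinery that copies nuclear DNA, with the enzymes that supply its nucleotides and UHRF1, which carries DNA methylation over to the new strand. They were chosen by gene symbol from a list of replication genes, with earlier results of these data known. They are 38 of the 30017 symbols in the RNA sequencing of A549-S3KO cells. A549 is a human lung adenocarcinoma cell line, and A549-S3KO is its derivative in which SMAD3 was disrupted by CRISPR/Cas9. These cells were infected with lentivirus for either Smad3(RA/KP), which carries the 2 changes R104K and A105P within the β4 region, part of the DNA-binding MH1 domain, or wild-type Smad3. The 4 groups, with 2 libraries each, were Smad3(RA/KP) cells treated for 8 h with 1 ng/ml TGF-β, untreated Smad3(RA/KP) cells, wild-type Smad3 cells treated in the same way, and untreated wild-type Smad3 cells, all plated on collagen. The question for these genes was how their transcripts responded to TGF-β with each form of Smad3, and whether the responses differed.

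Infected cells had been cloned by limiting dilution, and several clones were used in the study. The paper reports that wild-type clones matching the endogenous Smad3 level of parental cells were hard to obtain. The clone that expressed the least Smad3 was therefore taken. Which clones were sequenced is not named, so the mutation and a difference between clones cannot be told apart. The SMAD3 transcript had 137 to 187 TPM (a level scaled for transcript length and depth) in the 8 libraries, and this cannot tell transcripts of the lentiviral cDNA and of the edited locus apart. The libraries held 1.15 to 1.81 Gb of bases mapped to genes, and 12773 to 13281 symbols with at least 1 TPM. Read counts were not used here, so no counting intervals are given. The summed level of 6 epithelial markers was 10236 to 16730 TPM, nearly all of it from the keratin genes KRT7, KRT8 and KRT18. The rest of that list was low, with KRT19 listed at 0, EPCAM at 1.40 to 3.95 TPM and CDH1 at 1.59 to 10.3 TPM. Among immune markers PTPRC and CD3E were listed at 0, CD14 had 4.10 to 13.5 TPM and CD68, a lysosomal protein gene, 51.0 to 104 TPM. The summed level of 4 endothelial markers was 0 to 0.210 TPM and that of 4 fibroblast markers 1.14 to 5.51 TPM. GC content of the transcript set some libraries apart. The ratio of treated to untreated cells in replicate 2 of Smad3(RA/KP) cells followed it across all genes (Spearman's rho = 0.66 over 12419 genes, against −0.01 to 0.09 for the other 3 ratios). Set against the median of the other 7 libraries, the untreated Smad3(RA/KP) replicate 2 library had a rho of −0.64 with GC content, the treated one of that replicate had 0.46 in the opposite direction, treated Smad3(RA/KP) replicate 1 had 0.34, and the other 5 had −0.18 to 0.15. The members' median response in Smad3(RA/KP) cells, and those of several genes, are given with and without the untreated library, which was farthest from the rest. Most other values of Smad3(RA/KP) cells are given only with it.

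Replication starts at origins, where the origin recognition complex with CDC6 and CDT1 loads the ring of MCM2 to MCM7 onto DNA. MCM10, CDC45 and the GINS complex turn this ring into the active helicase, DNA polymerase α with primase lays down primers, and polymerases δ and ε extend them on the PCNA clamp. Most of these genes are transcribed periodically as cells pass from G1 into S phase, under E2F transcription factors that the RB family holds in check. TGF-β is known to arrest many epithelial cells in G1, in part through inhibitors of cyclin-dependent kinases.

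Because E2F sites are a known feature of replication gene promoters, the 300 bases around annotated start sites (250 before and 50 after, from RefSeq, build GRCh38.p14) were searched on both strands for the E2F words TTTGGCGC, TTTCCCGC, TTTGCCGC and TTTCGCGC, with overlapping words counted. Windows were found for 33 of the 38 genes, and MCM4, MCM5, GINS4, RPA2 and RPA3 had none. At least 1 word was found for 18 of the 33 (54.5%), while 6.8% of the 9143 genes tested that had a window and 4.0% of all 27305 symbols with a window held one. The 4 members with more than 1 word in a single window all belonged to the MCM helicase ring (UHRF1 had 1 word in each of 2 separate windows). These windows are shown with those of LIG1 and PRIM1. LIG1 had 1 word and the largest difference between the responses with the 2 forms of Smad3, which did not pass (limma adjusted p = 0.881). PRIM1 had no word and the lowest wild-type log2 fold change. Each window is printed 5′ to 3′ on the strand of the gene, and capitals mark the E2F words in either orientation.
MCM2 (chr3:127598161-127598460, plus strand): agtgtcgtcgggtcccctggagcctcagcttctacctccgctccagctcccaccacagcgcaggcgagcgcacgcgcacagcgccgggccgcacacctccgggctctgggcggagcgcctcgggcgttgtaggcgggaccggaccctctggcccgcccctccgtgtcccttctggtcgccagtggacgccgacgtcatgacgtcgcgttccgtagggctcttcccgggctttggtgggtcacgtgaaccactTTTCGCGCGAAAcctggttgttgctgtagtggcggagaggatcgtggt
MCM3 (chr6:52284693-52284992, minus strand): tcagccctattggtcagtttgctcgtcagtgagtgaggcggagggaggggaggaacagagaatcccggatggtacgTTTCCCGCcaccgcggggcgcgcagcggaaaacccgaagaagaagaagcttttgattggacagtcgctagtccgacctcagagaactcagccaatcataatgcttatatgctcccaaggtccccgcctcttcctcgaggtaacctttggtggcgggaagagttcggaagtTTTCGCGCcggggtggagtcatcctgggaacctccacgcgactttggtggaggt
MCM6 (chr2:135876394-135876693, minus strand): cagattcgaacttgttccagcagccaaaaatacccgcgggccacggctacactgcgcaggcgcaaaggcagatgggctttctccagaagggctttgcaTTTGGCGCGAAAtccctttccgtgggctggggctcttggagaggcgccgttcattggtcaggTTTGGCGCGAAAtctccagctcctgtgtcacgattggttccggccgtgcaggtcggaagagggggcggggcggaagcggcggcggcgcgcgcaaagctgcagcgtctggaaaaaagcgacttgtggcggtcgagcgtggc
MCM7 (chr7:100101348-100101647, minus strand): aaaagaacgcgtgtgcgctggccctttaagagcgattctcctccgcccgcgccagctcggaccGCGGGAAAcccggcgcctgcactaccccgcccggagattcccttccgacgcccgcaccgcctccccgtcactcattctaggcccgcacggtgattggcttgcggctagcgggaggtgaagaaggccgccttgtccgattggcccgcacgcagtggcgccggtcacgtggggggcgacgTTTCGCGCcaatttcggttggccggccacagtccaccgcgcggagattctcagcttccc
LIG1 (chr19:48170295-48170594, minus strand): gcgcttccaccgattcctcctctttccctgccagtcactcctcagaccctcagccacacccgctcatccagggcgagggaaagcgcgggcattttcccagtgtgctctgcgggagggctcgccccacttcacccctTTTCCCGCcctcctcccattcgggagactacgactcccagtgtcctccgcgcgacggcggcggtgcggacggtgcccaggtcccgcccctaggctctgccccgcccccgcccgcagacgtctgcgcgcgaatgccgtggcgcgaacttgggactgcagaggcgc
PRIM1 (chr12:56752274-56752573, minus strand): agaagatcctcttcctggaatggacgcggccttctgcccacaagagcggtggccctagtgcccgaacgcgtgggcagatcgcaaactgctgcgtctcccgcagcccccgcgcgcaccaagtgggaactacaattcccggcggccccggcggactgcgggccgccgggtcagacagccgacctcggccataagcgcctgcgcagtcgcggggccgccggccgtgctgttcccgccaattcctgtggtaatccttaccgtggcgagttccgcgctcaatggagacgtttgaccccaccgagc

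In the MCM6 window the 4 words lay as 2 overlapping pairs upstream of the start site, and in the MCM2 window 1 such pair lay just after it. The words of MCM3 and MCM7 were apart from each other, with the nearer at positions −4 and −9 from the start site, and the word of LIG1 was at −114. Medians of members with and without a word lay close together. Close variants were not searched for, so members without a word may still hold E2F sites. The MCM10 window and a CDC45 window, for example, hold tttggcgg. The median log2 fold change with TGF-β in Smad3(RA/KP) cells was −0.42 for the 18 with a word and −0.43 for the 15 without. The same medians with wild-type Smad3 were −0.36 and −0.31.

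Transcripts of the replication genes were mostly less abundant after TGF-β in both lines, to a fold of 0.742 of the untreated level at the median in Smad3(RA/KP) cells and 0.782 in wild-type Smad3 cells, and no single gene passed the test across all genes. The summed level of the 38 genes was 3139 and 2425 TPM in treated Smad3(RA/KP) cells, against 3629 and 3444 TPM in untreated ones. The same sum was 3138 and 2615 TPM in treated wild-type Smad3 cells, against 3869 and 3508 TPM in untreated ones. The treated libraries were below the untreated libraries in each line, and fewer cells in S phase and less RNA per cell cannot be told apart in such bulk samples. The log2 fold changes of the 38 genes had a median of −0.43 in Smad3(RA/KP) cells (range −0.99 to 0.33, 34 below 0), where that of all 13141 genes tested was −0.10 with 59.7% below 0. The median was −0.36 in wild-type Smad3 cells (range −0.84 to 0.08, 37 below 0), and that of all genes tested −0.06 with 58.6% below 0. All log2 fold changes refer to log2(TPM + 1), a scale that understates the change of weakly expressed genes.

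By limma with Benjamini-Hochberg adjustment over the 13141 genes, 0 of 38 members passed at 0.05 in either direction in either line. The background of lower calls over all genes was 1.5% in Smad3(RA/KP) cells and 1.74% in wild-type Smad3 cells, and that of higher calls 3.49% and 2.94%. The smallest adjusted p-values by limma were 0.0631 (MCM3) in Smad3(RA/KP) cells and 0.118 (PRIM1) in wild-type Smad3 cells. At an unadjusted p under 0.05, 17 members were lower in treated Smad3(RA/KP) cells where the background was 12.1%, and 11 were lower in treated wild-type Smad3 cells where it was 8.93%. None was higher by that rule, where the background was 9.76% in Smad3(RA/KP) cells and 7.59% in wild-type Smad3 cells. The count in wild-type Smad3 cells was 1 to 4 without each of the 4 wild-type libraries in turn (backgrounds 4.16% to 5.94%) and 19 without either untreated Smad3(RA/KP) library (12.9%). In Smad3(RA/KP) cells it was 6 without the untreated replicate 2 library (background 6.61%, members' median −0.25, all genes −0.01) and 6 without the treated one of that replicate (4.87%, −0.23 and 0.00). It was 20 without treated replicate 1 (13.8%, members' median −0.60, all genes −0.20). Without untreated replicate 1, 16 members passed the adjusted threshold, all lower, where 12.4% of all genes did so, with a median of −0.62 for the members and −0.18 for all genes.

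Members whose 2 treated libraries both lay below the 2 untreated libraries numbered 23 of 38 in Smad3(RA/KP) cells, where 25.4% of all genes did so. With wild-type Smad3 they numbered 32 of 38, where the share of all genes was 27.9%. No member had both treated libraries above the untreated ones, although 19% of all genes did in Smad3(RA/KP) cells and 17.8% in wild-type Smad3 cells. The 2 lines shared 20 of these members, 12 were separated only in wild-type Smad3 cells, 3 only in Smad3(RA/KP) cells (GINS1, FEN1 and RPA3), and 3 in neither (MCM5, GINS3 and RFC1). The shares of all genes in these classes were not computed, so the division is a description of the members only.

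The ratio within each experiment, taken between libraries with the same replicate number, gave the spread behind these counts. That libraries with the same number came from the same experiment is an assumption. In Smad3(RA/KP) cells the median log2 ratio of the 38 genes was −0.13 in replicate 1 and −0.68 in replicate 2, and the medians of all genes were 0.04 and −0.23. In wild-type Smad3 cells the medians were −0.30 and −0.39, and those of all genes −0.09 and −0.03. The ratio was below 0 for 27 and 32 members in the 2 replicates of Smad3(RA/KP) cells (backgrounds 45.4% and 62.6%) and for 38 and 35 members in those of wild-type Smad3 cells (60.8% and 53.5%). Relative to all genes, the members therefore lay lower in each of the 4 ratios. Both ratios were below 0 for 24 members in Smad3(RA/KP) cells (background 32.6%) and for 35 in wild-type Smad3 cells (background 41.8%).

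**Figure D1:**
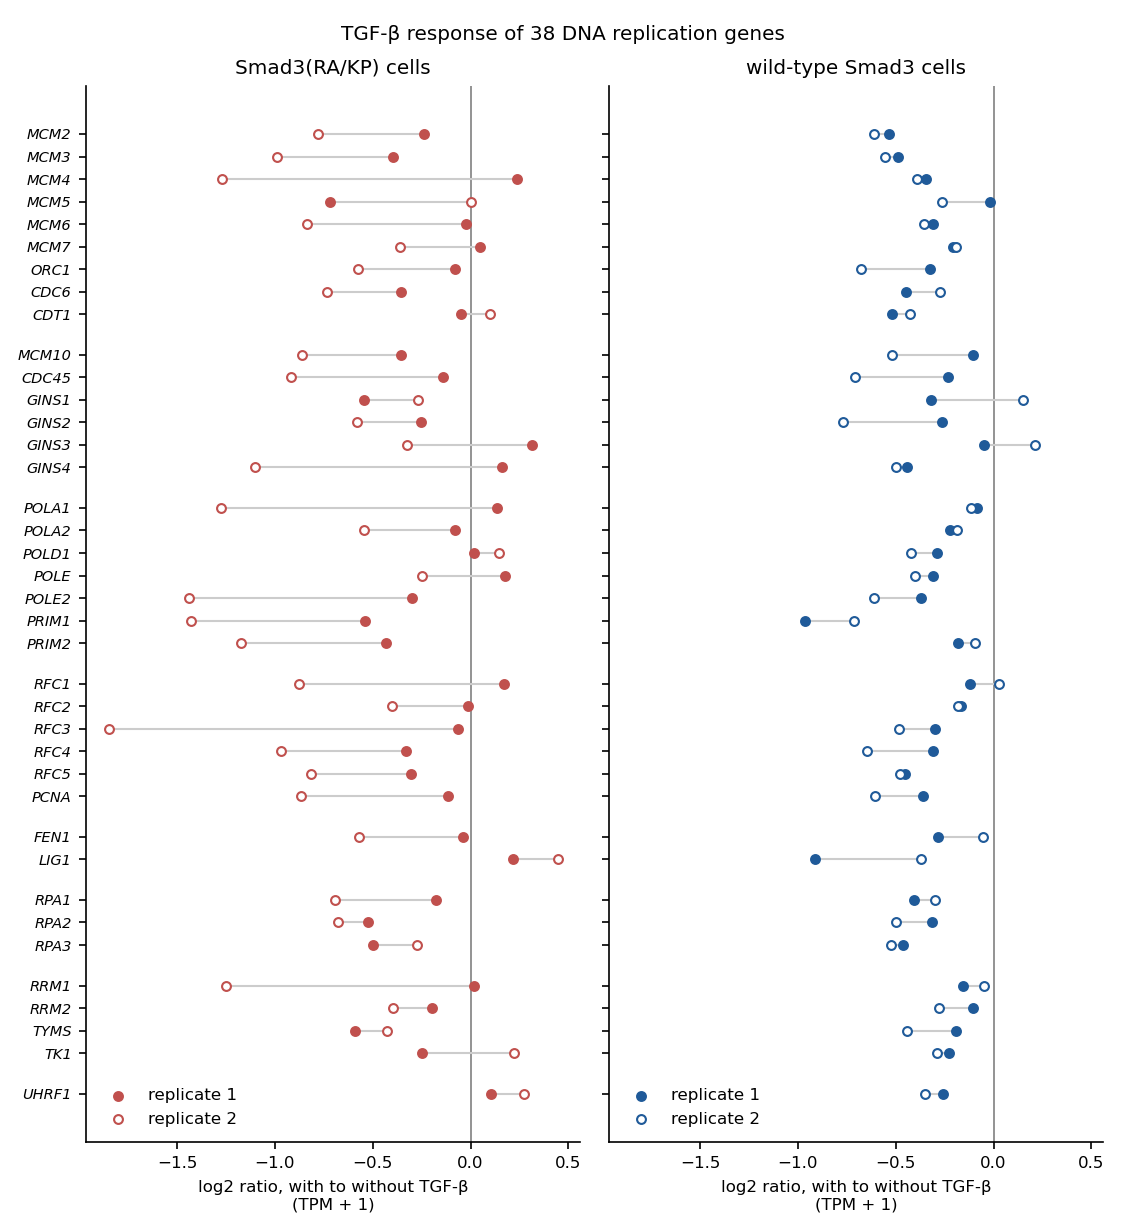
Log2 ratio of treated to untreated cells (TPM + 1, horizontal axis) for each of the 38 replication genes, grouped by role from licensing at the top to UHRF1 at the bottom, with Smad3(RA/KP) cells left and wild-type Smad3 cells right. Filled points are replicate 1 and open points replicate 2, joined by a line. In wild-type Smad3 cells all 38 filled and 35 of the 38 open points lie below 0, and in Smad3(RA/KP) cells 27 filled and 32 open points do, with the 2 points of a gene often far apart.

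The wide spread in replicate 2 of Smad3(RA/KP) cells went along with GC content. Over the 38 members, rho between the log2 ratio and transcript GC content was 0.64 for this ratio, and 0.16, −0.15 and −0.14 for Smad3(RA/KP) replicate 1 and wild-type replicates 1 and 2, all as a description over genes measured in shared libraries. In the 19 members with the lower GC content the median ratio in Smad3(RA/KP) replicate 2 was −0.87, and in the 19 with the higher GC content it was −0.43. The corresponding medians in wild-type replicate 2 were −0.39 and −0.40. With the GC trend of each library removed, the median log2 fold change of the members was −0.30 in Smad3(RA/KP) cells and −0.30 in wild-type Smad3 cells, against −0.01 and 0.00 over all genes, and 35 and 36 of the 38 were below 0. The members' GC content had a median of 47.0% (38.03 to 64.3%), and that of all genes tested 48.9%.

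Licensing genes, which place the helicase at origins, had median log2 fold changes over 9 genes of −0.43 with Smad3(RA/KP) and −0.37 with wild-type Smad3. MCM2, a subunit of the helicase ring, had 85.3 and 59.1 TPM in treated Smad3(RA/KP) cells, against 101 and 102 TPM in untreated ones. Treated wild-type Smad3 cells had 75.7 and 69.7 TPM of MCM2, against 110.0 and 107 TPM in untreated ones. The untreated libraries of both lines lay close together near the top, and the groups did not overlap in either line. The log2 fold change of MCM2 was −0.51 ± 0.18 (SE) in Smad3(RA/KP) cells and −0.57 ± 0.18 in wild-type Smad3 cells, with limma adjusted p = 0.148 for Smad3(RA/KP) and 0.119 for wild-type Smad3 cells. MCM3, another subunit of the ring, had 86.8 and 55.0 TPM in treated and 115 and 110.2 TPM in untreated Smad3(RA/KP) cells. It had 96.7 and 71.8 TPM in treated and 136 and 106 TPM in untreated wild-type Smad3 cells, again with no overlap. Replicate 1 was above replicate 2 in all 4 groups for this gene. Its log2 fold change was −0.69 ± 0.18 (limma adjusted p = 0.0631) in Smad3(RA/KP) cells and −0.52 ± 0.18 (limma adjusted p = 0.158) in wild-type Smad3 cells. MCM3 was past the threshold in Smad3(RA/KP) cells with the GC trend removed (limma adjusted p = 0.0273), from FPKM (0.0383) and when only genes averaging 5 TPM or more were tested (0.0456). It did not pass in that line under the other alternatives that kept all 8 libraries, for example without the replicate block (limma adjusted p = 0.230). Its log2 fold change in Smad3(RA/KP) cells was −0.48 without the untreated replicate 2 library.

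The loader CDC6 had 31.1 and 28.7 TPM in treated Smad3(RA/KP) cells and 40.1 and 48.4 TPM in untreated ones, and 32.6 and 35.1 TPM in treated wild-type Smad3 cells and 44.8 and 42.7 TPM in untreated ones. CDC6 was separated in both lines, at log2 fold changes of −0.55 in Smad3(RA/KP) cells (limma adjusted p = 0.118) and −0.36 in wild-type Smad3 cells (limma adjusted p = 0.356). CDT1, which brings the MCM ring to origins and is destroyed once replication begins, had 56.2 and 52.4 TPM in treated and 58.1 and 48.8 TPM in untreated Smad3(RA/KP) cells, which overlapped. With wild-type Smad3 it had 44.9 and 44.4 TPM in treated and 64.8 and 59.9 TPM in untreated cells, with no overlap and a response of −0.47 ± 0.16 (limma adjusted p = 0.150), where that in Smad3(RA/KP) cells was 0.03 ± 0.16. The difference of these responses was 0.50 ± 0.22 (limma adjusted p = 0.881), so it was not shown.

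The other licensing genes were spread between these examples. MCM4, MCM6 and MCM7 belong to the same ring, and all 3 were lower in both treated wild-type libraries, with log2 ratios of −0.35 and −0.39 for MCM4, −0.31 and −0.36 for MCM6, and −0.21 and −0.19 for MCM7. In Smad3(RA/KP) cells the MCM4 ratios were 0.24 and −1.27, from 69.9 and 41.1 TPM in treated and 59.2 and 101 TPM in untreated cells, so the 2 replicates disagreed in direction. MCM5, which holds the gate of the ring with MCM2, had 168 and 130.2 TPM in treated and 277 and 129.8 TPM in untreated Smad3(RA/KP) cells. Its levels in wild-type Smad3 cells were 259 and 149 TPM with and 262 and 179 TPM without TGF-β. Replicates of MCM5 differed more than treatments, and the groups overlapped in both lines. ORC1, the regulated subunit of the origin recognition complex, had log2 ratios of −0.08 and −0.57 in Smad3(RA/KP) cells and −0.32 and −0.68 in wild-type Smad3 cells.

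Genes that activate the helicase had medians of −0.44 in Smad3(RA/KP) cells and −0.39 in wild-type Smad3 cells over 6 genes. GINS2, a subunit of the GINS complex and the most abundant of this group, had 243 and 179 TPM in treated Smad3(RA/KP) cells, against 291 and 268 TPM in untreated ones. Wild-type Smad3 cells had 253 and 183 TPM of GINS2 with treatment, against 304 and 314 TPM when untreated. The treated libraries were lower in both lines without overlap, at log2 fold changes of −0.42 ± 0.17 in Smad3(RA/KP) cells (limma adjusted p = 0.208) and −0.52 ± 0.17 in wild-type Smad3 cells (limma adjusted p = 0.152). CDC45, which completes the helicase together with GINS, had 26.0 and 16.2 TPM in treated and 28.7 and 31.5 TPM in untreated Smad3(RA/KP) cells. With wild-type Smad3 the CDC45 level was 27.9 and 24.2 TPM in treated and 32.9 and 40.1 TPM in untreated cells. Both lines were separated, with the lowest value in treated Smad3(RA/KP) replicate 2. Its log2 fold changes were −0.53 in Smad3(RA/KP) cells (limma adjusted p = 0.234) and −0.47 in wild-type Smad3 cells (limma adjusted p = 0.382). MCM10, needed for the helicase to fire, had 15.1 and 11.8 TPM in treated and 19.6 and 22.3 TPM in untreated Smad3(RA/KP) cells, and 20.4 and 14.1 TPM in treated and 22.0 and 20.6 TPM in untreated wild-type Smad3 cells. Its log2 fold changes were −0.61 in Smad3(RA/KP) cells (limma adjusted p = 0.150) and −0.31 in wild-type Smad3 cells (limma adjusted p = 0.572), and in wild-type Smad3 cells only a narrow gap parted the groups.

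The remaining GINS subunits did not move as a block. GINS3 was the only member whose log2 fold change in wild-type Smad3 cells was above 0, at 0.08 ± 0.20 (limma adjusted p = 0.920), from 31.6 and 31.0 TPM in treated and 32.8 and 26.6 TPM in untreated cells. Its levels were 40.0 and 28.4 TPM in treated and 32.0 and 35.8 TPM in untreated Smad3(RA/KP) cells, which overlapped. GINS1 had log2 ratios of −0.54 and −0.27 in Smad3(RA/KP) cells and −0.32 and 0.15 in wild-type Smad3 cells. GINS4 had ratios of 0.16 and −1.10 in Smad3(RA/KP) cells and −0.44 and −0.50 in wild-type Smad3 cells, with the wild-type pair close together and the Smad3(RA/KP) pair on opposite sides of 0.

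Polymerase and primase genes had medians of −0.57 in Smad3(RA/KP) cells and −0.36 in wild-type Smad3 cells over 7 genes. PRIM1, the catalytic subunit of primase, had the lowest fold change of all members in both lines. It had 24.2 and 18.9 TPM in treated and 35.6 and 52.6 TPM in untreated Smad3(RA/KP) cells. The PRIM1 level was 25.3 and 20.2 TPM in treated and 50.3 and 33.8 TPM in untreated wild-type Smad3 cells. All 4 treated libraries were below all 4 untreated ones. Its log2 fold changes were −0.99 ± 0.26 in Smad3(RA/KP) cells (limma adjusted p = 0.0691) and −0.84 ± 0.26 in wild-type Smad3 cells (limma adjusted p = 0.118). Without the untreated Smad3(RA/KP) replicate 2 library the value in Smad3(RA/KP) cells was −0.51. It was then no longer the lowest, with MCM5 at −0.62, TYMS at −0.61 and PRIM2 at −0.54. In wild-type Smad3 cells PRIM1 passed with the GC trend removed (limma adjusted p = 0.0356). It passed there under no other alternative that kept all 8 libraries, for example not without the replicate block (limma adjusted p = 0.205). Over the 18 alternatives its wild-type log2 fold change was −1.10 to −0.58.

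PRIM2, the regulatory subunit of primase, had 5.39 and 4.09 TPM in treated and 7.63 and 10.5 TPM in untreated Smad3(RA/KP) cells, and 5.72 and 5.94 TPM in treated and 6.63 and 6.42 TPM in untreated wild-type Smad3 cells. The groups were apart in both lines, widely in Smad3(RA/KP) cells at −0.80 ± 0.25 (limma adjusted p = 0.108) and narrowly in wild-type Smad3 cells at −0.14 ± 0.25 (0.877). The difference of the PRIM2 responses, −0.66 ± 0.35, had a limma adjusted p of 0.881. POLD1, the catalytic subunit of polymerase δ, which copies the lagging strand, had 83.0 and 69.0 TPM in treated and 82.0 and 62.3 TPM in untreated Smad3(RA/KP) cells, which overlapped. With wild-type Smad3 it had 64.6 and 58.6 TPM in treated and 79.2 and 78.8 TPM in untreated cells, with no overlap. The log2 fold changes of POLD1 were 0.08 in Smad3(RA/KP) cells (limma adjusted p = 0.798) and −0.36 in wild-type Smad3 cells (limma adjusted p = 0.330).

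POLE, the catalytic subunit of polymerase ε on the leading strand, and POLE2, its accessory subunit, were both below their untreated levels in each wild-type replicate, with log2 ratios of −0.31 and −0.40 for POLE and −0.37 and −0.61 for POLE2. In Smad3(RA/KP) cells the ratios were 0.18 and −0.25 for POLE and −0.30 and −1.44 for POLE2. POLA1 and POLA2, subunits of polymerase α, had small ratios in wild-type Smad3 cells, at −0.09 and −0.11 for POLA1 and −0.22 and −0.19 for POLA2. POLA1 in Smad3(RA/KP) cells had 5.70 and 3.46 TPM with and 5.11 and 9.81 TPM without TGF-β, so its highest level was in the untreated replicate 2 library. POLA1 is also the least abundant member, with a mean of 6.01 TPM over the 8 libraries.

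The clamp and its loader had medians of −0.53 in Smad3(RA/KP) cells and −0.43 in wild-type Smad3 cells over 6 genes. PCNA, the sliding clamp that tethers the polymerases and the most abundant member with a mean of 561 TPM, had 579 and 381 TPM in treated Smad3(RA/KP) cells, against 627 and 697 TPM in untreated ones. PCNA was at 515 and 405 TPM in treated wild-type Smad3 cells, against 661 and 618 TPM in untreated ones. Treated PCNA levels were below untreated levels in both lines without overlap. The log2 fold change of PCNA was −0.49 ± 0.19 with Smad3(RA/KP) (limma adjusted p = 0.189) and −0.48 ± 0.19 with wild-type Smad3 (limma adjusted p = 0.250). RFC5, a small subunit of the clamp loader, had 32.0 and 28.2 TPM in treated and 39.9 and 50.3 TPM in untreated Smad3(RA/KP) cells. The RFC5 level in wild-type Smad3 cells was 31.8 and 30.02 TPM with and 43.96 and 42.3 TPM without TGF-β, with replicates within about 2 TPM of each other. RFC5 had log2 fold changes of −0.56 in Smad3(RA/KP) cells (limma adjusted p = 0.126) and −0.47 in wild-type Smad3 cells (limma adjusted p = 0.237).

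RFC4, another small subunit, had 21.3 and 18.7 TPM in treated and 27.0 and 37.5 TPM in untreated Smad3(RA/KP) cells, and 27.5 and 21.5 TPM in treated and 34.4 and 34.3 TPM in untreated wild-type Smad3 cells. Its log2 fold changes were −0.65 in Smad3(RA/KP) cells (limma adjusted p = 0.135) and −0.48 in wild-type Smad3 cells (limma adjusted p = 0.323), with no overlap in either line. RFC3 showed the most uneven pair of ratios, −0.06 and −1.85 in Smad3(RA/KP) cells, from 18.6 and 9.85 TPM in treated and 19.5 and 38.1 TPM in untreated cells, and its transcript had the lowest GC content of the members. The RFC3 ratios with wild-type Smad3 were −0.30 and −0.48. RFC2 had ratios of −0.01 and −0.40 in Smad3(RA/KP) cells and −0.17 and −0.18 in wild-type Smad3 cells. RFC1, the large subunit, overlapped in both lines, with ratios of 0.17 and −0.88 in Smad3(RA/KP) cells and −0.12 and 0.03 in wild-type Smad3 cells.

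The 2 genes that finish Okazaki fragments differed from each other. LIG1, the ligase that seals the fragments, had 74.3 and 54.2 TPM in treated Smad3(RA/KP) cells, against 63.7 and 39.5 TPM in untreated ones, and these overlapped. LIG1 stood at 42.0 and 54.3 TPM in treated wild-type Smad3 cells, against 80.0 and 70.6 TPM in untreated ones. Treated wild-type libraries were clearly below untreated ones, while within each replicate of Smad3(RA/KP) cells the treated library was the higher. Its log2 fold change was 0.33 ± 0.24 (limma adjusted p = 0.440) in Smad3(RA/KP) cells and −0.64 ± 0.24 (limma adjusted p = 0.202) in wild-type Smad3 cells. The difference of the LIG1 responses was 0.97 ± 0.34, with a limma adjusted p of 0.881. Untreated LIG1 was also lower in Smad3(RA/KP) cells than in wild-type Smad3 cells (log2 fold change −0.57 ± 0.24, limma adjusted p = 1.00), and the value was lowest in the untreated replicate 2 library. Without that library the response of LIG1 in Smad3(RA/KP) cells was 0.04. FEN1, the nuclease that trims the fragments, had 88.7 and 61.6 TPM in treated and 90.9 and 92.1 TPM in untreated Smad3(RA/KP) cells, and 86.7 and 74.4 TPM in treated and 106 and 77.3 TPM in untreated wild-type Smad3 cells, which overlapped. FEN1 had log2 fold changes of −0.30 in Smad3(RA/KP) cells (limma adjusted p = 0.345) and −0.17 in wild-type Smad3 cells (limma adjusted p = 0.743).

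RPA1, RPA2 and RPA3 encode the complex that coats single-stranded DNA at the fork, and their median was −0.43 in Smad3(RA/KP) cells and −0.41 in wild-type Smad3 cells. RPA2 had 48.1 and 43.6 TPM in treated Smad3(RA/KP) cells, against 69.7 and 70.2 TPM in untreated ones. Wild-type Smad3 cells had 55.5 and 45.4 TPM of RPA2 when treated, against 69.4 and 64.5 TPM when untreated. All 4 treated libraries were below all 4 untreated ones, and log2 fold changes were −0.60 ± 0.16 in Smad3(RA/KP) cells (limma adjusted p = 0.0723) and −0.41 ± 0.16 in wild-type Smad3 cells (limma adjusted p = 0.236). RPA1, the largest subunit, had 47.0 and 38.3 TPM in treated and 53.3 and 62.5 TPM in untreated Smad3(RA/KP) cells, and 47.3 and 47.6 TPM in treated and 62.9 and 58.8 TPM in untreated wild-type Smad3 cells. It showed the same order, at −0.43 in Smad3(RA/KP) cells (limma adjusted p = 0.201) and −0.35 in wild-type Smad3 cells (limma adjusted p = 0.381). RPA3, the smallest subunit, had 130.5 and 111 TPM in treated and 185 and 134 TPM in untreated Smad3(RA/KP) cells, and 154 and 93.1 TPM in treated and 212 and 134 TPM in untreated wild-type Smad3 cells. Replicates of RPA3 lay far apart in wild-type Smad3 cells and the groups overlapped there, although both ratios were below 0, at −0.46 and −0.52. Its log2 fold changes were −0.39 in Smad3(RA/KP) cells (limma adjusted p = 0.226) and −0.49 in wild-type Smad3 cells (limma adjusted p = 0.161).

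**Figure D2:**
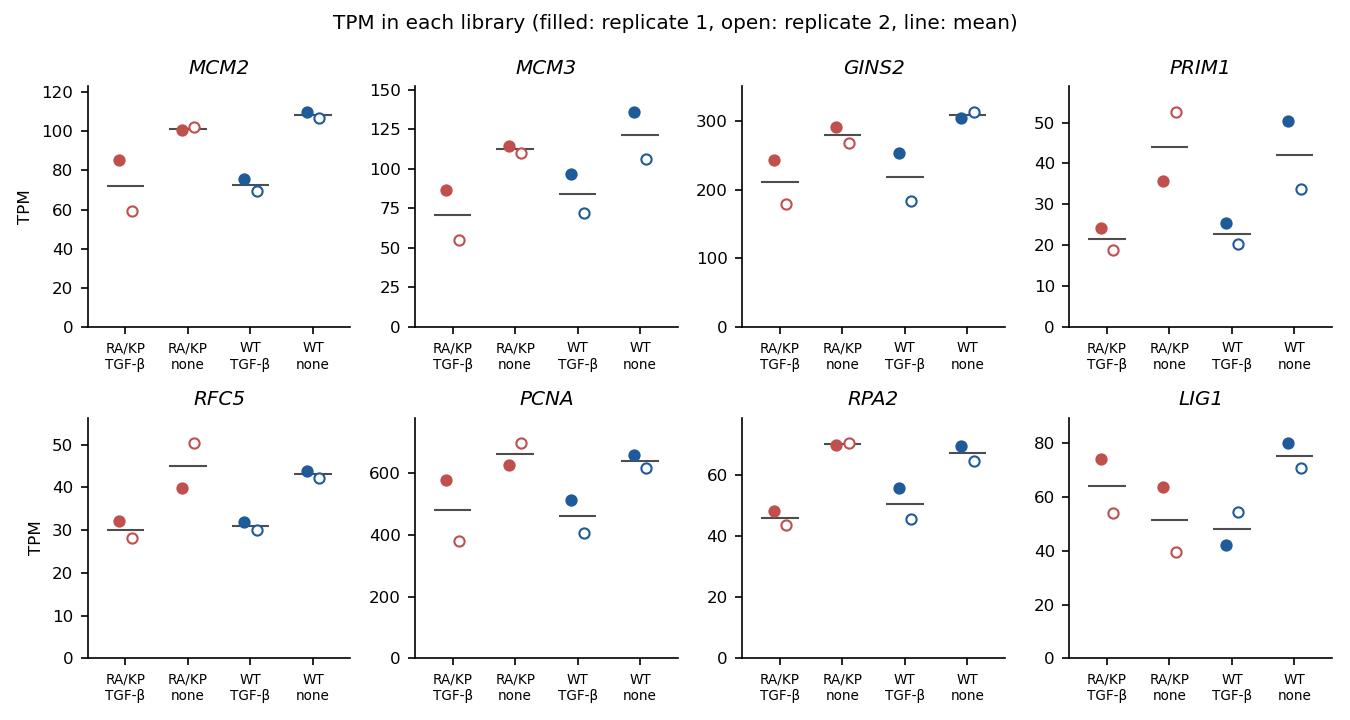
TPM (vertical axes from 0) of 8 replication genes in each library, with treated and untreated Smad3(RA/KP) cells in red left of treated and untreated wild-type Smad3 cells in blue. Filled points are replicate 1, open points replicate 2 and lines the mean of the 2. MCM2, MCM3, GINS2, PRIM1, RFC5, PCNA and RPA2 are lower with TGF-β without overlap in both lines, and LIG1 is so only in wild-type Smad3 cells, where it had 42.0 and 54.3 TPM with and 80.0 and 70.6 TPM without TGF-β.

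Genes that supply nucleotides had medians of −0.40 in Smad3(RA/KP) cells and −0.23 in wild-type Smad3 cells over 4 genes. TYMS, thymidylate synthase, had 164 and 128 TPM in treated Smad3(RA/KP) cells, against 248 and 172 TPM in untreated ones. Its levels were 205 and 153 TPM in treated wild-type Smad3 cells, against 234 and 208 TPM in untreated ones. The groups were apart in both lines, and replicate 1 was the higher in all 4 groups. Log2 fold changes of TYMS were −0.51 ± 0.15 in Smad3(RA/KP) cells (limma adjusted p = 0.104) and −0.32 ± 0.15 in wild-type Smad3 cells (limma adjusted p = 0.365). TK1, the thymidine kinase of the salvage route, had 331 and 320.0 TPM in treated and 393 and 274 TPM in untreated Smad3(RA/KP) cells, and 301 and 292 TPM in treated and 353 and 356 TPM in untreated wild-type Smad3 cells. TK1 was separated only in wild-type Smad3 cells, at log2 fold changes of −0.01 in Smad3(RA/KP) cells (limma adjusted p = 0.974) and −0.26 in wild-type Smad3 cells (limma adjusted p = 0.556). RRM1, the large subunit of ribonucleotide reductase, had 37.5 and 26.4 TPM in treated and 37.0 and 64.2 TPM in untreated Smad3(RA/KP) cells, and 38.6 and 41.3 TPM in treated and 43.1 and 42.9 TPM in untreated wild-type Smad3 cells. Its log2 fold changes were −0.62 in Smad3(RA/KP) cells (limma adjusted p = 0.220) and −0.10 in wild-type Smad3 cells (limma adjusted p = 0.925), and the first was −0.16 without the untreated replicate 2 library. RRM2, the small subunit, had log2 ratios of −0.20 and −0.40 in Smad3(RA/KP) cells and −0.11 and −0.28 in wild-type Smad3 cells.

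UHRF1, which reads hemimethylated DNA behind the fork and recruits the methyltransferase DNMT1, had 57.1 and 51.0 TPM in treated Smad3(RA/KP) cells, against 53.1 and 42.1 TPM in untreated ones, and the groups overlapped. UHRF1 had 44.6 and 39.2 TPM in treated wild-type Smad3 cells, against 53.5 and 50.3 TPM in untreated ones, and these groups did not. The log2 fold changes were 0.19 ± 0.16 in Smad3(RA/KP) cells (limma adjusted p = 0.514) and −0.30 ± 0.16 in wild-type Smad3 cells (limma adjusted p = 0.411).

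The responses of the 2 lines were then set against each other gene by gene. For the difference of the responses, 0 of 38 members passed by limma in either direction, where the background was 0.00761% higher and 0.0152% lower. At an unadjusted p under 0.05, LIG1 was the 1 member higher (background 2.57%) and 0 were lower (background 1.72%). The median difference was −0.10 for the members and −0.02 for all genes, and 26 members were below 0. Leaving out 1 Smad3(RA/KP) library changed this count to 8 (untreated replicate 2), 28 (untreated replicate 1), 16 (treated replicate 2) or 30 (treated replicate 1), so its direction depended on which of those libraries was used. POLD1, LIG1 and UHRF1 were the 3 members with both Smad3(RA/KP) ratios above 0 and both wild-type ratios below 0, where 4.92% of all genes had this pattern, and 0 members had the opposite one (background 3.45%).

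The 2 lines were also compared at the same treatment. Without TGF-β, by limma 0 members passed in either direction (background 0% higher and 0.0152% lower), and LIG1 was the 1 member lower at an unadjusted p under 0.05 (background 0.974%), with 0 higher (background 1.53%). The median log2 fold change of Smad3(RA/KP) over wild-type Smad3 cells was −0.04 for the members and 0.03 for all genes. The libraries of the lines did not overlap for 6 members that were lower in Smad3(RA/KP) cells (MCM2, MCM7, CDT1, CDC45, GINS2 and LIG1, background 8.78%) and for 2 that were higher (PRIM2 and RPA2, background 10.1%). With TGF-β 0 members passed by limma (background 0% higher and 0.00761% lower), and 0 had an unadjusted p under 0.05 (4.95% and 2.45%). The median was −0.13 for the members and 0.00 for all genes. Treated levels did not overlap for 7 members lower in Smad3(RA/KP) cells (CDC6, GINS1, PRIM2, RFC1, RFC4, RPA1 and RRM1, background 18.7%) and 4 higher (CDT1, POLD1, TK1 and UHRF1, background 18.8%). These lists divided by transcript GC content, at 39.7 to 47.1% for the 7 lower and 54.6 to 64.3% for the 4 higher. Among the untreated lists it was 48.6 to 64.3% for the 6 lower and 43.1 to 46.7% for the 2 higher. Whether the GC trends of the libraries account for this was not tested.

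Levels among the members spanned a wide range, and TPM allows them to be compared between genes. After PCNA the means over the 8 libraries were 327 TPM for TK1, 276 for MCM7, 254 for GINS2 and 194 for MCM5, and at the other end 9.44 for RFC1, 6.54 for PRIM2 and 6.01 for POLA1. PCNA lay at 381 to 697 TPM and TK1 at 274 to 393 TPM in single libraries, so even these neighbours at the top overlapped. Within the MCM ring, whose subunits assemble in equal numbers, mean levels differed from 276 TPM for MCM7 to 40.0 TPM for MCM6.

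Other genes of the cell cycle, in lists chosen with earlier results of these data known, were read beside the members. Of 35 further replication and S phase genes, 0 were called lower in either line, 28 had a log2 fold change below 0 in Smad3(RA/KP) cells and 33 in wild-type Smad3 cells, and the medians were −0.44 in Smad3(RA/KP) cells and −0.24 in wild-type Smad3 cells. POLD4, the small subunit of polymerase δ, was the 1 gene of this list that passed, and it rose in Smad3(RA/KP) cells, with 285 and 243 TPM treated and 170.4 and 136 TPM untreated (log2 fold change 0.79 ± 0.18, limma adjusted p = 0.0424). Its call was lost without any of 7 of the 8 libraries (limma adjusted p = 0.0604 to 0.185), the exception being untreated Smad3(RA/KP) replicate 1, and without the replicate block (0.0895). With wild-type Smad3 the smallest p-values of the list were those of GMNN, the inhibitor of CDT1, at −0.63 (limma adjusted p = 0.165), and POLD4 at 0.55 (0.139), which did not pass.

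Of 27 tested genes for E2F, RB and G1/S control, 2 rose and 0 fell in Smad3(RA/KP) cells and 1 rose and 1 fell in wild-type Smad3 cells, with medians of −0.23 in Smad3(RA/KP) cells and −0.02 in wild-type Smad3 cells. CDKN1A, the p21 inhibitor of cyclin-dependent kinases, had 233 and 225 TPM in treated and 112 and 85.9 TPM in untreated Smad3(RA/KP) cells. Treated wild-type Smad3 cells had 245 and 252 TPM of CDKN1A and untreated ones 139 and 127 TPM. It rose in both lines with no overlap, with log2 fold changes of 1.22 ± 0.16 in Smad3(RA/KP) cells (limma adjusted p = 0.00365) and 0.90 ± 0.16 in wild-type Smad3 cells (limma adjusted p = 0.0139). The CDKN1A call was lost without treated Smad3(RA/KP) replicate 2 in Smad3(RA/KP) cells (limma adjusted p = 0.0546) and without any of the 4 wild-type libraries in wild-type Smad3 cells (0.111 to 0.2003). E2F2, an activating E2F, fell in wild-type Smad3 cells to 1.61 and 1.42 TPM when treated, against 6.84 and 3.43 TPM when untreated (log2 fold change −1.23 ± 0.27, limma adjusted p = 0.0364). This call was lost without any wild-type or treated Smad3(RA/KP) library (limma adjusted p = 0.0538 to 0.416) and without the replicate block (0.164). E2F2 in Smad3(RA/KP) cells had 2.94 and 1.55 TPM treated and 6.26 and 3.82 TPM untreated (log2 fold change −0.90, limma adjusted p = 0.102). CCND1, cyclin D1, was the other gene that rose in Smad3(RA/KP) cells (0.77 ± 0.16, limma adjusted p = 0.0268), a call lost without any of the same 7 libraries as that of POLD4 (0.0620 to 0.159) and without the replicate block (0.0588). E2F1, named after its values were seen, had 52.3 and 43.97 TPM in treated and 74.0 and 48.7 TPM in untreated Smad3(RA/KP) cells and 52.5 and 33.1 TPM in treated and 75.6 and 62.8 TPM in untreated wild-type Smad3 cells, and did not pass in either line (limma adjusted p = 0.319 for Smad3(RA/KP) and 0.0582 for wild-type Smad3 cells). CDKN2B, the p15 inhibitor that TGF-β induces in many epithelial cells, was listed at 0 in all 8 libraries, as was CDKN2A. No response of CDKN2B could therefore be read.

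Among 30 G2/M genes, 2 fell and 0 rose in Smad3(RA/KP) cells and 1 fell and 0 rose in wild-type Smad3 cells, with 29 and 25 below 0 and medians of −0.47 and −0.18. CDC25B, a phosphatase that activates mitotic kinases, fell to 151 and 126 TPM in treated Smad3(RA/KP) cells, against 336 and 232 TPM in untreated ones (log2 fold change −1.01 ± 0.16, limma adjusted p = 0.00892). CDC25B also fell with wild-type Smad3, to 107 and 101 TPM in treated cells, against 289 and 237 TPM in untreated ones (−1.32 ± 0.16, limma adjusted p = 0.00218). The CDC25B calls were lost in Smad3(RA/KP) cells without either treated library of that line (limma adjusted p = 0.0753 and 0.0782) or without the replicate block (0.0588), and in wild-type Smad3 cells without treated replicate 1 (0.0645). AURKA, a mitotic kinase, fell in Smad3(RA/KP) cells by 0.78 on the log2 scale (limma adjusted p = 0.0331), a call lost without any of those 7 libraries (0.0672 to 0.208), with median-ratio scaling (0.0542) or without the replicate block (0.228). POLD4, CCND1 and AURKA were also named after their values were seen.

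Established TGF-β and Smad3 targets served as a check that both lines had responded. Of 16 tested, 12 rose in Smad3(RA/KP) cells and 13 in wild-type Smad3 cells, and 0 fell. ANGPTL4 rose by 4.77 and 4.89 on the log2 scale, IL11 by 3.74 and 4.04 and COL1A1 by 4.05 and 3.79, in Smad3(RA/KP) and wild-type Smad3 cells in that order, and these 3 passed in both lines under all 18 alternative settings. Set beside them, the values of the replication genes were small, with a median standard error of 0.19 on the same scale.

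**Figure D3:**
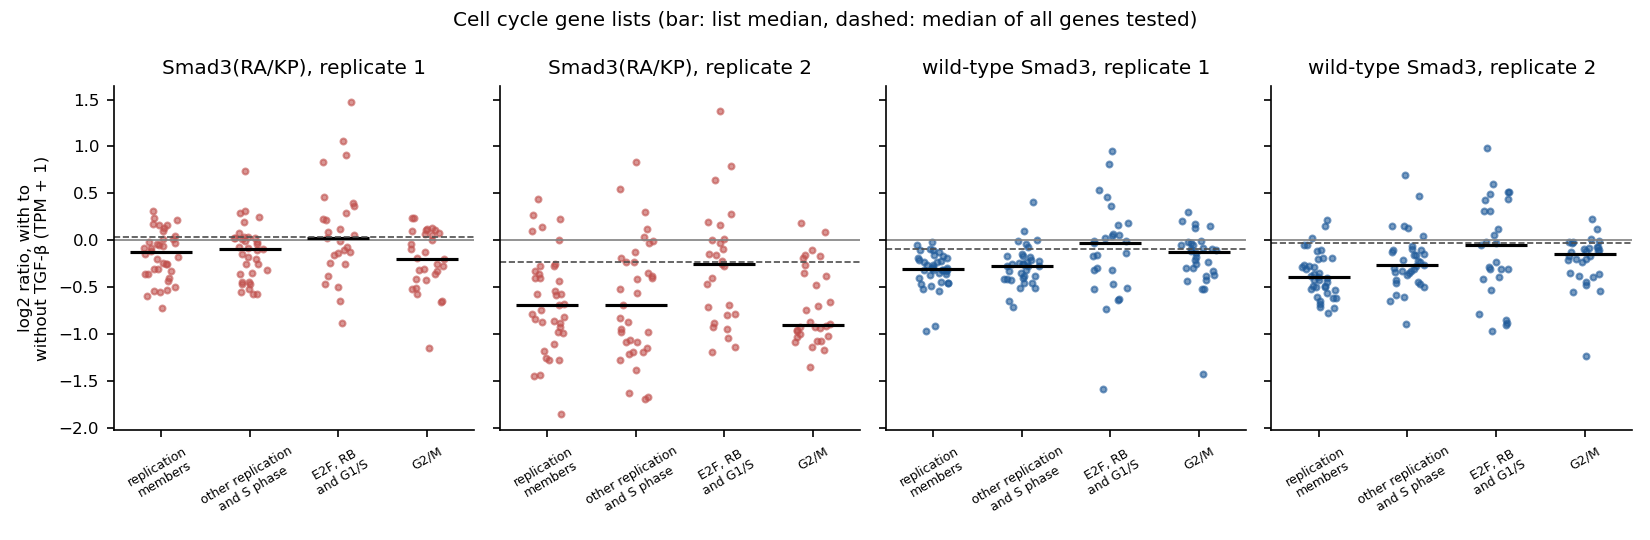
Log2 ratio of treated to untreated cells (TPM + 1, vertical axis) for the 38 members and 3 further cell cycle lists, in 1 panel for each line and replicate, where points are genes, thick bars list medians and the dashed line the median of all genes tested. The members' medians are −0.13 and −0.68 in replicates 1 and 2 of Smad3(RA/KP) cells and −0.30 and −0.39 in those of wild-type Smad3 cells, below the dashed line in each panel, and in replicate 2 of Smad3(RA/KP) cells the other replication genes (−0.69) and the G2/M genes (−0.90) are also well below it.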

How the data were processed

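Libraries were prepared from poly(A) RNA with an Ion Total RNA-Seq kit, from cells seeded on collagen and stimulated at the same time. Alignment by the authors used HISAT2 and GRCh38, and StringTie quantified known genes (versions 2.1.0 and 2.0.4 in the submitters' notes). Which annotation served was not given in sources used here. The deposited tables hold TPM, FPKM and mean base coverage per gene record as the authors computed them. TPM was tested, FPKM served as an alternative, and coverage over FPKM gave the depth. Whether counting used strand is not stated, and 11 members overlap another record.

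Records of a symbol were summed. The 13141 genes averaging 1 TPM or more were tested on log2(TPM + 1), with limma 3.58.1 (R 4.3.3), a term for each of the 4 groups, the replicate number as a block, a variance trend over the mean, and Benjamini-Hochberg adjustment at 0.05, leaving 3 residual degrees of freedom. The study's replicates are 2 independent experiments. Deviations of same-numbered libraries correlated at 0.0484 between treated and untreated Smad3(RA/KP) cells and at 0.332 between treated and untreated wild-type Smad3 cells. The other pairs of groups had 0.221 to 0.284, and the pairing of libraries is an assumption, with the least correlation behind the Smad3(RA/KP) ratios. Values in every library are given for the 2 members of each role with the smallest p in each line, and other members were chosen after their values were seen. Members and lists were chosen with earlier results of these data known. GC content came from the longest GENCODE release 44 transcript of each symbol (94.5% of genes tested had one). Python 3.11.15 and matplotlib 3.10.9 drew the figures. The fit was tested on simulated data. The 18 alternatives were other pseudocounts (0.1 and 5 TPM), no filter or a minimum mean of 5 TPM, FPKM, quantile normalization, median-ratio scaling, no trend, no block, removal of the GC trend, and leaving out each of the 8 libraries.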

Additional observations from a re-analysis of the deposited data

Results flagged for a closer look

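In 3 members both ratios were above 0 in Smad3(RA/KP) cells and both were below 0 in wild-type Smad3 cells. The log2 ratios of LIG1 were 0.22 and 0.45 in Smad3(RA/KP) cells and −0.91 and −0.37 in wild-type Smad3 cells, and the difference of the responses was 0.97. For POLD1 the ratios were 0.02 and 0.15 in Smad3(RA/KP) cells, against −0.29 and −0.42 in wild-type Smad3 cells, and the difference was 0.44. For UHRF1 they were 0.10 and 0.27 in Smad3(RA/KP) cells, against −0.26 and −0.35 in wild-type Smad3 cells, and the difference was 0.49. The limma adjusted p of the difference was 0.881 for each of the 3, so none passed, and 4.92% of all genes had the same pattern of signs. In all 3 the untreated Smad3(RA/KP) replicate 2 library had the lowest level of the line, and without it the response in Smad3(RA/KP) cells was 0.04 for LIG1, −0.05 for POLD1 and 0.10 for UHRF1. Transcript GC content was 56.6% for LIG1, 63.9% for POLD1 and 54.6% for UHRF1, above the members' median of 47.0%. Over the 18 alternatives, which include removal of the GC trend, the log2 fold change in Smad3(RA/KP) cells was 0.04 to 0.63 for LIG1. The range was −0.19 to 0.21 for POLD1 and 0.10 to 0.28 for UHRF1. Whether the signs of the single ratios follow GC content was not tested.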

How the results depend on the processing

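With 2 libraries a group, no member was called under the settings reported above. In Smad3(RA/KP) cells 2 members were called when only genes averaging 5 TPM or more were tested (MCM3 and PRIM1, background of lower calls 2.32%), 1 from FPKM (MCM3, 2.1%) and 1 with the GC trend removed (MCM3, 2.68%), and 0 to 16 when each library was left out in turn (12.4% where it was 16). In wild-type Smad3 cells 1 was called with the GC trend removed (PRIM1, 3.76%) and 0 to 1 when each library was left out (3.43% and 3.4% where it was 1). All these calls were lower with TGF-β. Over the 18 alternatives the members' median was −0.62 to −0.23 in Smad3(RA/KP) cells and −0.39 to −0.29 in wild-type Smad3 cells, and leaving out each library gave −0.62 to −0.23 and −0.38 to −0.29. For the difference of the responses and the comparisons between lines, 0 members were called under any alternative, and their direction was not stable, with 8 to 30, 13 to 34 and 13 to 32 members below 0 for the difference, the untreated and the treated cells. Without the replicate block, members called stayed at 0 in all 5 comparisons, and genes called over all 13141 numbered 269 in Smad3(RA/KP) cells and 277 in wild-type Smad3 cells, where they had been 655 and 615 with it. Among the other named genes, the calls of POLD4, CCND1 and AURKA in Smad3(RA/KP) cells and of CDKN1A in wild-type Smad3 cells were also lost with no filter and with no trend, and that of E2F2 with no filter (limma adjusted p = 0.0509 to 0.124).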

Other observations

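Besides the E2F words, 3 other short motifs were counted in the same promoter windows on both strands. The CCAAT box (CCAAT) was found for 60.6% of the 33 members with a window, and for 43.1% of the 9143 genes tested with a window. The GC box (GGGCGG) was found for 75.8% of the members and 78.0% of the genes tested. The letters TTTGAA of the cell cycle homology region, known from promoters of G2/M genes, were found for 1 of the 33 members and 1189 of the 9143 genes tested.

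Of the 11 members that overlap another record, 8 had it on the opposite strand, among them TYMS with ENOSF1, RFC4 with EIF4A2 and TK1 with AFMID, and 4 on the same strand. In 9 members (MCM3, MCM5, ORC1, CDT1, POLD1, POLE, RPA3, TYMS and UHRF1) replicate 1 was above replicate 2 in all 4 groups, and in 0 members was the order the other way in all 4. The shares of all genes with either order were not computed, so these counts describe the members only.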
